A study of Mus musculus with 3 samples.

Results

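The 5 genes of the IL-17 receptor family, Il17ra, Il17rb, Il17rc, Il17rd and Il17re, were followed in single lung lymphocytes. They were taken by their gene symbols, and all 5 are among the 32285 genes of the count matrices. Each family member is a single-pass membrane protein whose intracellular SEFIR domain recruits the adaptor Act1 (gene Traf3ip2) and, through TRAF proteins, activates NF-kB and MAP kinases. IL-17RA is the shared chain: it pairs with IL-17RC to bind IL-17A and IL-17F, with IL-17RB to bind IL-25, and with IL-17RE to bind IL-17C. In the lung, IL-25 from epithelial tuft cells acts on group 2 innate lymphoid cells (ILC2), which make type 2 cytokines, whereas IL-17A and IL-17F come largely from gamma delta T cells, other type 17 T cells and ILC3.

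All mice were GFI1B-GFP reporters, in which GFP marks use of the gene for the zinc finger repressor GFI1B. Their lungs were perfused and digested, and live CD45+lin-CD90.2+IL-7R+ cells were sorted for 10x Chromium 3' sequencing. There were 3 groups with 1 library each: a pool in which cells sorted as IL-18R+CD103+GFP- were joined with others sorted as IL-18R+CD103-GFP+ (1655 cells kept), a library labelled IL-18R-CD103-GFP- (1872 cells, also called the second library) and an IL-18R-ST2+ library (1611 cells). The sources used here do not give age, sex, treatment, number of mice or the state of the reporter allele, and cells of the pool carry no mark of which of its sorts they came from. With 1 library per group there is no replicate check and no test, and each library differs from the others by its sort, so lineage, sort and library cannot be told apart where a comparison crosses libraries. Levels are UMIs per 1000000 UMIs of the library or cell group (UPM), and the ranges in parentheses are exact 95% intervals for counting error only.

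The kept cells held 7891960 to 9598728 UMIs per library, with a median of 4568 to 4930 UMIs per cell. The labels were checked against transcripts. Il1rl1, which encodes ST2, stood at 868 UPM in the IL-18R-ST2+ library against 4.91 in the pool. Il18r1, which encodes a chain of the IL-18 receptor, stood at 663 UPM for the pool against 15.7 for IL-18R-ST2+ cells. It also stood at 592 UPM where the label is IL-18R-CD103-GFP-, so at the transcript level the IL-18R- part of that label is not met. Itgae, which encodes CD103, stood at 3.44 UPM there against 99.8 in the pool, as the CD103- part reads. The lineage-negative gate did not leave ILC alone: 1238 pool cells and 1657 cells from the IL-18R-CD103-GFP- labelled library had 2 or more UMIs of Cd3d, Cd3e and Cd3g, and 816 and 1378 of them were gamma delta T cells by Trdc. These libraries shared 1 cell barcode with each other, and no other pair of libraries shared any.

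Cells were gated by marker UMIs, and no receptor gene entered a gate. Gamma delta and alpha beta T cells had 2 or more CD3 UMIs and were told apart by Trdc or Trac. Cells with 2 or more CD3 UMIs that were neither are called other CD3-positive cells. Type 17 cells had 2 or more UMIs summed over a marker list that includes Il23r, Il17a, Il17f and Ccr6. ILC2-gated cells had no CD3 UMI, at least 1 of Gata3 and 2 or more of Il1rl1, Il5, Il13, Klrg1, Areg and Hs3st1. Tcf7-positive cells had no CD3 UMI, at least 1 of Tcf7, the gene of the early lymphoid factor TCF-1, and passed neither the ILC2 nor the type 17 gate.

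The receptor genes lie in 2 chromosome regions (GRCm38, GENCODE M21). Il17re (chromosome 6, 113458484 to 113470758) is followed on the same strand by Il17rc (113471427 to 113483140), and Il17ra lies further along chromosome 6 (120463247 to 120487559). Il17rd (chromosome 14, 27038941 to 27107286) and Il17rb (chromosome 14, 29996135 to 30008896, minus strand) share the other. Il17rb starts head to head with Chdh (chromosome 14, 30009023 to 30040527, plus strand), the gene of the mitochondrial choline dehydrogenase. The 126 bases between their annotated starts are shown because the levels of both genes moved together across cell groups, as described further on.

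Il17rb to Chdh, chr14:30008897-30009022, minus strand: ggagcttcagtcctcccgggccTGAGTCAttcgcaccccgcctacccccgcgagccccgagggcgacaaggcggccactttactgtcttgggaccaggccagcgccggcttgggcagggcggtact

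The sequence is RefSeq's GRCm38.p6, read 5' to 3' on the strand of Il17rb, and the capitals mark its 1 match to TGAGTCA, a motif of AP-1 factors. On either strand TGAGTCA was found in 4.46% of 32851 windows of 250 bases before RefSeq gene starts. GATAA, a core bound by GATA factors, was in 22.6% of these windows and AGGTCA, a core bound by ROR factors, in 14% of them. The 250 bases before Il17rb held neither of those letter runs. A match is only a match of letters, and its absence says nothing of a factor's binding.

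Il17ra was the evenly spread member. It stood at 41.5 UPM in the pool (37.4 to 45.9), 46.5 in the IL-18R-CD103-GFP- labelled library (42.3 to 51.0) and 30.8 in the IL-18R-ST2+ library (27.0 to 34.9). The pool level was 1.35-fold that of the IL-18R-ST2+ library (1.14 to 1.59), and 1.08-fold under TMM scaling, a trimmed-mean scaling between libraries. Cells with at least 1 UMI made up 18.3%, 19.6% and 12.8% of the libraries in the same order. After each cell was thinned to 2000 UMIs these shares were 8.25%, 9.39% and 5.70%. The 40 myeloid cells left in the pool, gated by Csf1r, Cd14 and Csf3r, had 39 Il17ra UMIs, or 169 UPM.

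Il17rb and Il17re divided the libraries in opposite ways. Il17rb stood at 100.7 UPM in the IL-18R-ST2+ library (93.9 to 108), 32.0 in the pool (28.4 to 35.9) and 8.33 in the IL-18R-CD103-GFP- labelled library (6.61 to 10.4). The 3 intervals do not overlap, and the IL-18R-ST2+ library was 3.15-fold over the pool (2.75 to 3.62) and 12.1-fold over the second library (9.60 to 15.4). Il17re stood at 79.9 UPM in the pool (74.2 to 86.0) and 70.7 in the IL-18R-CD103-GFP- labelled library (65.5 to 76.3), and at 1.01 in the IL-18R-ST2+ library, where it had 8 UMIs in all. The ratio of pool to IL-18R-ST2+ was 78.8 (39.8 to 183).

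Il17rc followed Il17re at a lower level, with 80, 59 and 3 UMIs in the pool, the IL-18R-CD103-GFP- labelled library and the IL-18R-ST2+ library. Il17rd, which encodes SEF, an inhibitor of FGF signalling that also touches IL-17 signalling, had 28, 12 and 17 UMIs. Of the pool's Il17rd UMIs, 19 of 28 lay in the 135 cells gated as other lineages, and 16 of those in 58 endothelial cells with Cdh5 or Cldn5.

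A gene was called higher or lower between groups at a ratio of at least 2 where either group reached 20 UPM. Between the pool and the IL-18R-ST2+ library 3 of the 5 receptor genes were measured: Il17re was higher in the pool, Il17rb was lower and Il17ra was neither. The same held for the IL-18R-CD103-GFP- labelled library against the IL-18R-ST2+ library. For comparison, 12.3% of the 5930 genes measured between pool and IL-18R-ST2+ were higher and 4.33% lower in the pool. Between the other pair 9.57% of genes were higher and 5.40% lower in the IL-18R-CD103-GFP- labelled library. The median log2 ratio of all genes was 0.30 and 0.19. Between the pool and the IL-18R-CD103-GFP- labelled library Il17rb was 3.84-fold higher in the pool (2.99 to 4.98), where 2.55% of genes were higher and 0.791% lower, and Il17re differed by 1.13-fold (1.02 to 1.26).

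**Figure D1:**
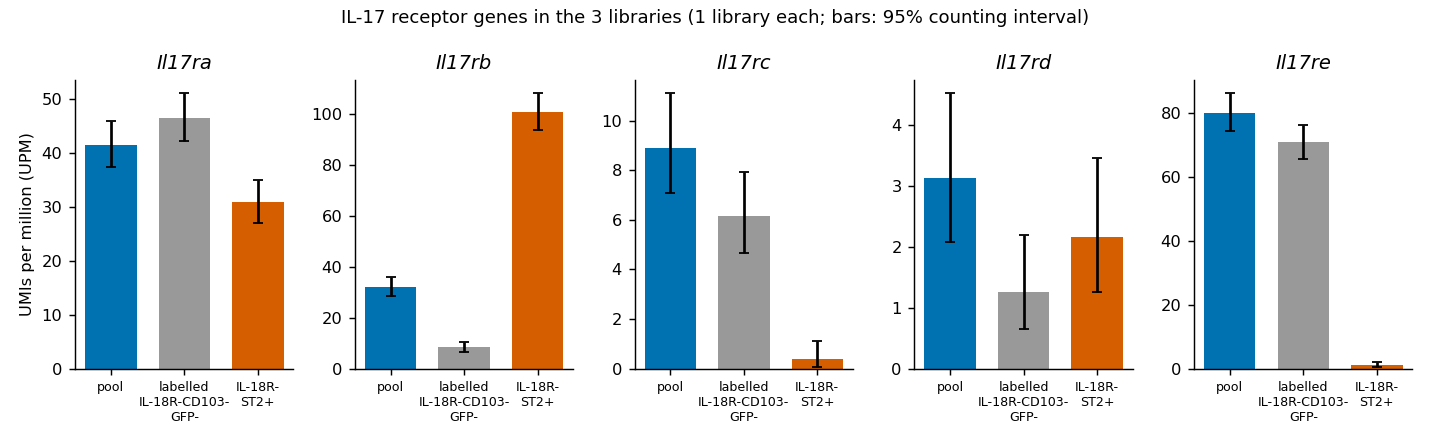
Levels of the 5 receptor genes, in UMIs per 1000000 (UPM), in the 3 libraries. Bars show 1 library each and lines the 95% counting interval, and each panel has its own axis from 0. Il17rb was highest in the IL-18R-ST2+ library at 100.7 UPM, and Il17re and Il17rc were near 0 there.

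The ligand genes were read in the same cells. Il17a stood at 499.9, 365 and 8.996 UPM in the pool, the IL-18R-CD103-GFP- labelled library and the IL-18R-ST2+ library, and Il17f at 33.2, 26.5 and 0.380 UPM. Il25, Il17b and Il17c had 0 UMIs in all 3 libraries, with exact upper bounds of 0.411, 0.384 and 0.467 UPM for each gene. Il17d had 3, 5 and 1 UMIs. The ligand genes of IL-17RB and IL-17RE were therefore not detected at this depth in the cells that carried those receptor transcripts.

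Il17rb was read first in ILC2, the best known IL-25 responders. The 1068 ILC2-gated cells of the IL-18R-ST2+ library held 565 Il17rb UMIs, or 107 UPM (98.5 to 116), and 373 of these cells (34.9%) had at least 1. The share was 18.2% at 2000 UMIs per cell. No cell held more than 5. Il1rl1 was found in 1033 of the 1068 cells. Cells with an Il5 or Il13 UMI had 105 UPM (342 cells) and cells without had 108 (726 cells), a ratio of 0.972 (0.814 to 1.16), so presence of these cytokine transcripts went with no difference in Il17rb beyond counting error. Of all measured genes 0.426% were higher and 0.116% lower in the cytokine-bearing cells. A further 235 CD3-positive cells of that library that were neither gamma delta nor alpha beta stood at 92.0 UPM (75.7 to 111). They passed the CD3 gate on Cd3g, found in 232 of them against 10 with Cd3d and 27 with Cd3e, and 222 had Il1rl1.

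The low end was set by gamma delta T cells. All 816 of the pool held 4 Il17rb UMIs, or 1.02 UPM (0.279 to 2.62), so 0.490% of them had 1. None of the 813 cells left after thinning had 1, with an exact upper bound of 0.453% for the share of cells with a UMI at that depth, which is no bound on cells with the transcript. The 1378 gamma delta T cells of the IL-18R-CD103-GFP- labelled library held 17 UMIs, or 2.47 UPM (1.44 to 3.95). Their median depth was 4689 and 4700 UMIs, close to the 4647 of the ILC2, and the ILC2 level was 105-fold that of the pool's gamma delta T cells (40.7 to 386), where 6.10% of measured genes were lower and 12.5% higher in the gamma delta T cells. Free RNA, which can give stray UMIs to any cell, was not removed, and the unthinned 0.490% is the share to read other pool cells against. It is no baseline for the IL-18R-ST2+ library, where gamma delta T cells outside the type 17 gate were 0.683% of cells.

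The CD3-negative Tcf7-positive cells of the pool were compared with these ILC2. The 85 cells outside the ILC2 and type 17 gates held 36 Il17rb UMIs, or 61.4 UPM (43.0 to 85.1). UMIs were found in 31.8% of them, against 34.9% of the ILC2, at a median depth of 6046 UMIs. At 2000 UMIs the shares were 15.3% (8.40 to 24.7) and 18.2% (15.9 to 20.7), and these intervals overlap. Trac, a T cell receptor gene, had a UMI in 16 of the 85 cells and 78 of the 1068 ILC2, and Trdc in 8 and 10, and the part of T cells with no CD3 UMI in these levels was not tested. By level the ILC2 were 1.74-fold higher (1.25 to 2.52), under the 2-fold call, and 2.35-fold higher with TMM scaling, which passes it. The median log2 ratio of all 6037 measured genes in this comparison was -0.38, so the typical gene was lower in the ILC2. Of these genes 6.15% were called higher in ILC2 and 17.8% lower. When all 163 CD3-negative Tcf7-positive pool cells were taken, including those that pass the ILC2 or type 17 gate, the level was 71.1 UPM (57.1 to 87.3), the thinned share 14.1% and the ratio 1.51 (1.21 to 1.91), where 5.68% of measured genes were higher in ILC2. These cells were Il18r1-bearing in 155 of 163 and had Il1rl1 in 8 of 163.

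Within the 85 Tcf7-positive cells the level of Il17rb differed with genes of ILC1 and NK cells. The 42 cells with no UMI of Ncr1, Klrb1c, Klrd1, Tbx21, Eomes, Xcl1, Gzmb and Ccl5 stood at 107 UPM (69.5 to 159), and the 34 cells with 2 or more at 25.1 (10.1 to 51.8). The ratio was 4.28 (1.80 to 11.7), and the median depths were 5102 and 7360 UMIs. Among 6439 measured genes 8.63% were higher in the cells without ILC1 and NK genes at this fold. Thinned shares were 26.2% (13.9 to 42.0) and 2.94% (0.0744 to 15.3). The cells without these genes did not differ from the ILC2 beyond counting error, at a ratio of ILC2 to them of 0.998 (0.669 to 1.56). The same split in the IL-18R-CD103-GFP- labelled library, a separate sort, gave 9 UMIs in 35 cells against 1 in 24 cells, or 52.8 (24.1 to 100.1) and 7.53 UPM (0.191 to 41.9). There the ratio was 7.01 with an interval of 0.971 to 307 that includes 1, and 6.65% of measured genes were higher at that fold.

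Splitting the same 85 cells by Zbtb16, the gene of the progenitor factor PLZF, gave no such difference. Il17rb stood at 48.6 UPM (27.8 to 78.8) in the 37 cells with it and 78.0 (47.6 to 121) in the 48 without. Il17ra, in contrast, differed, with 4 UMIs (12.1 UPM) in the cells with Zbtb16 and 16 (62.4 UPM) in the cells without, a ratio of 0.195 (0.0473 to 0.603), at median depths of 7322 and 4884 UMIs. At this fold 9.20% of measured genes were lower in cells with Zbtb16. Over all 68 Tcf7-positive cells of the IL-18R-CD103-GFP- labelled library Il17rb stood at 28.7 UPM (13.8 to 52.8), and the pool's Tcf7-positive cells were 2.14-fold over these (1.04 to 4.84), where 8.74% of measured genes were higher.

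The 97 pool cells that pass the ILC2 gate had 99.0 UPM of Il17rb (78.7 to 123), a level within the interval of the ST2+ ILC2, yet they differed from them in other genes. Il1rl1 was found in 11 of these 97 cells, Il18r1 in 91, Tcf7 in 66 and Areg in 87, so that most of them passed on Gata3 with Areg. Without the 11 Il1rl1-bearing cells the level was 90.0 UPM (69.9 to 114), or 0.840-fold that of the ST2+ ILC2 (0.643 to 1.08), where 6.08% of measured genes were lower. The thinned share of all 97 cells, 13.4% (7.33 to 21.8), was lower than that of the ST2+ ILC2, with overlapping intervals, and up to 8 UMIs lay in 1 cell. Among all CD3-negative pool cells the 68 with Ccr10, a skin and mucosal homing receptor gene, had 61.4 UPM and the 192 without had 99.6, a ratio of 0.617 (0.404 to 0.916) that misses the call. Of all measured genes 3.58% were higher and 9.68% lower in cells with Ccr10. Their thinned shares were 14.7% in both.

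CD3-negative type 17 cells, the ILC3-like gate, held few cells. In the pool 19 such cells held 31 Il17rb UMIs, or 247 UPM (168 to 351), above the interval of the ST2+ ILC2. The UMIs lay in 8 cells with up to 8 in 1 cell, and the thinned share was 31.6% (12.6 to 56.5). In the IL-18R-CD103-GFP- labelled library 25 such cells held 1.

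Alpha beta T cells of the pool also carried Il17rb. The 98 with type 17 genes had 77.2 UPM (56.3 to 103) and the 74 others 29.0 (15.4 to 49.5), a ratio of 2.67 (1.41 to 5.39), where 6.73% of measured genes were higher and 4.93% lower in the type 17 cells. The thinned shares, 9.28% (4.33 to 16.9) and 5.41% (1.49 to 13.3), overlap. Type 17 gamma delta T cells of the same library held 2 UMIs in 592 cells, or 0.698 UPM (0.0845 to 2.52). The alpha beta level was 111-fold higher within the same library (28.9 to 942), while 3.44% of measured genes were higher by 2-fold. Alpha beta cells with Zbtb16, a mark of innate-like T cells, had 64.9 UPM (42.8 to 94.5, 63 cells) and those without 50.4 (34.2 to 71.5, 109 cells), and these intervals overlap.

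**Figure D2:**
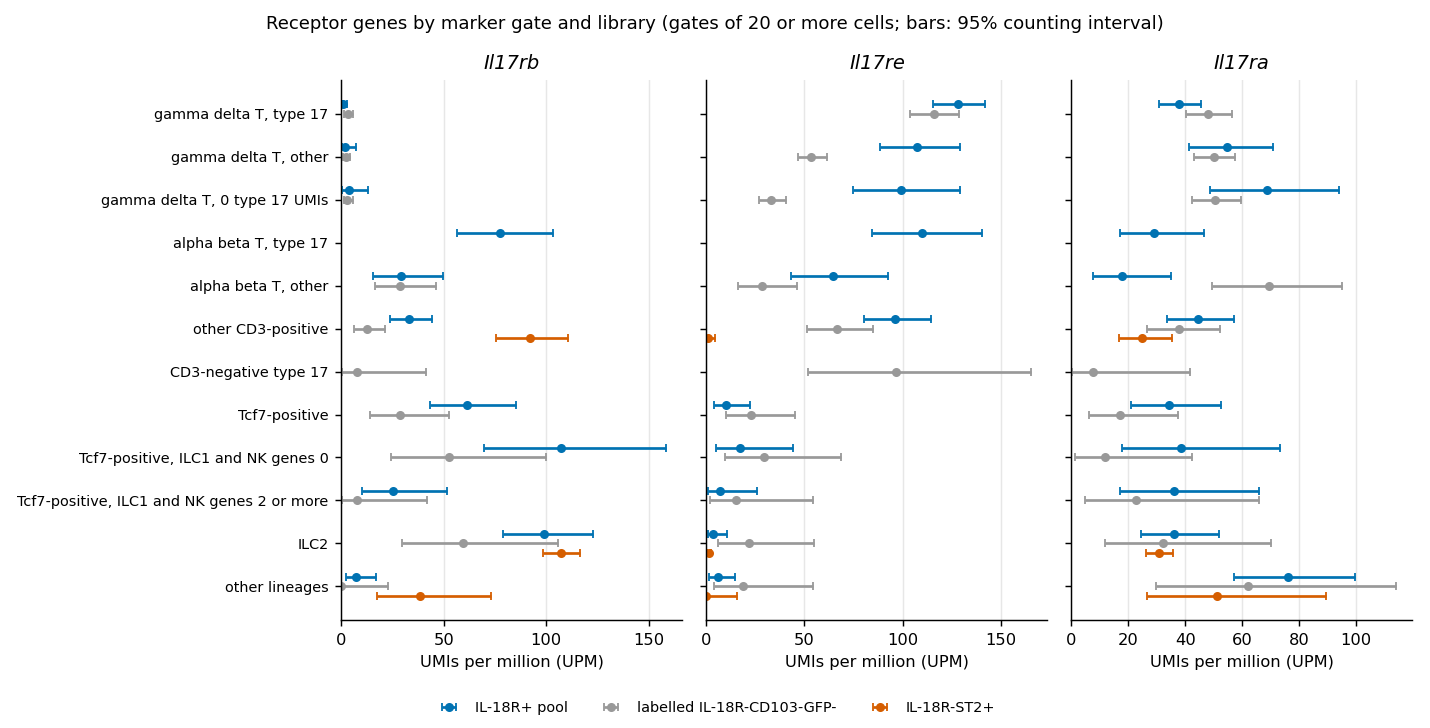
Levels of Il17rb, Il17re and Il17ra, in UMIs per 1000000 (UPM), by marker gate (rows) and library (colours), for gates of 20 or more cells. Points are sums over the cells of a gate and lines the 95% counting interval. Il17rb sits near 0 in gamma delta T cells and at 107 UPM in ST2+ ILC2, Il17re shows the reverse, and Il17ra is spread over all gates.

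Il17rb was then used to divide cells within a gate, and other genes were compared between cells with and without an Il17rb UMI. Absence of a UMI is not absence of the transcript, so such a split blurs differences. Of the 163 CD3-negative Tcf7-positive pool cells 53 had an Il17rb UMI and 110 had none, at median depths of 6919 and 7237 UMIs. Of a list of 24 lymphoid genes 21 were measured, 3 were higher in the Il17rb-bearing cells, 2 were lower and 16 were neither, with a median log2 ratio of 0.16. Over all measured genes 4.48% were higher and 5.14% lower, with a median of 0.04.

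The 3 higher genes of the list were Il1rl1, Il13 and Cxcr6. Both Il1rl1 and Il13 are genes of the ILC2 gate, and the 85 cells outside the ILC2 and type 17 gates held 1 UMI of each, so nearly all their UMIs lay in cells that pass one of those gates. Il1rl1 had 13 UMIs against 3, or 31.4 against 3.52 UPM, but these lay in 5 of 53 and 3 of 110 cells. Il13, a type 2 cytokine gene, stood at 58.0 against 24.6 UPM (ratio 2.35, 1.26 to 4.44), in 9 and 6 cells. Cxcr6, a chemokine receptor gene of resident lymphocytes, was the broadest, at 239 against 108 UPM (2.22, 1.65 to 2.98), in 35 of 53 and 51 of 110 cells. Icos, a costimulatory receptor gene, lay just under the call at 664 against 333 UPM (1.99, 1.68 to 2.36).

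Of the 8 genes of ILC1 and NK cells 5 were lower in cells with an Il17rb UMI, 2 were neither and Klrb1c was not measured. The 85 cells already divided by these genes are among the 163, so this is the same association read from the other side. Klrd1, the gene of the NK receptor chain CD94, stood at 14.5 against 162 UPM, and had a UMI in 4 of 53 and 25 of 110 cells. Xcl1, a chemokine gene of NK cells, had 0 UMIs against 140 in 21 cells. Ncr1 stood at 41.1 against 98.5 UPM, Eomes at 4.83 against 32.8 and Tbx21, with an interval that includes 1, at 12.1 against 25.8. Ccl5 stood at 244 against 467 UPM, a ratio of 0.523 that misses the call (0.499 with TMM scaling, which passes it), and Gzmb at 45.9 against 24.6. Both genes lower in the list were Itgae, which encodes CD103, at 33.8 against 78.6 UPM (ratio 0.430, 0.223 to 0.773), and Il22, at 0 against 147 UMIs. All 147 Il22 UMIs lay in 3 cells. Zbtb16 stood at 62.8 against 108 UPM (0.582, 0.361 to 0.908), which misses the call. Because the pool mixes a CD103+ with a GFP+ sort, the Itgae difference and the origin of the cells cannot be told apart.

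In the ILC2 of the IL-18R-ST2+ library the same split set 373 cells against 695, and 0.0968% of measured genes were higher and 0.0968% lower. These groups held 1985509 and 3285111 UMIs against 414086 and 852677 in the Tcf7-positive split, so 20 UPM rests on more UMIs here, and the difference between the shares of both splits was not tested. Of the lymphoid list 14 genes were measured and 1, Il4, was higher, at 60.4 against 27.4 UPM (2.21, 1.66 to 2.93), in 67 of 373 and 63 of 695 cells. Il13 was at 146 against 209 UPM (0.696, 0.605 to 0.8) and Areg at 1610 against 1912 (0.842, 0.807 to 0.879), both inside the 2-fold limits. Il1rl1 was at 967 against 916 UPM (1.06, 0.997 to 1.12). Il17ra, which encodes the partner chain, stood at 39.8 against 25.3 UPM (1.57, 1.14 to 2.17). At 2000 UMIs per cell Il17ra was found in 7.25% (4.02 to 11.9) of the 193 cells with Il17rb and in 5.20% (3.82 to 6.89) of the 866 without, and these intervals, from 14 and 45 cells, overlap.

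**Figure D3:**
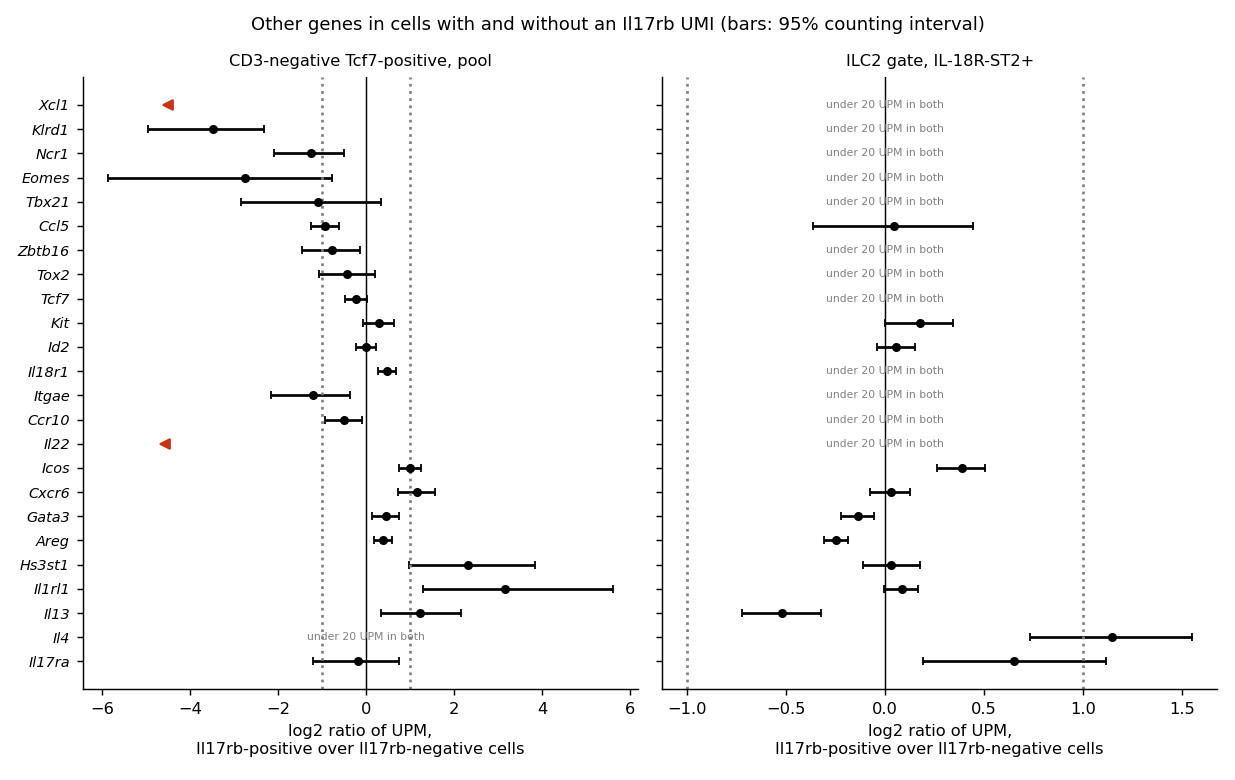
Log2 ratio of UMIs per 1000000 between cells with and without an Il17rb UMI, for genes of the fixed lists, in CD3-negative Tcf7-positive pool cells (left, 53 against 110 cells) and ST2+ ILC2 (right, 373 against 695 cells). Lines are 95% counting intervals, dotted lines mark 2-fold and red triangles mark 0 UMIs in the Il17rb-bearing cells, placed at the 3-UMI floor. The horizontal axes differ, and the ILC1 and NK genes drawn lie left of 0 on the left side. Gzmb, which was not lower, and Klrb1c are not drawn.

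In alpha beta T cells of the pool, type 17 and others together, 46 cells with Il17rb were set against 126 without. Il17re was higher in the cells with Il17rb, at 143 against 68.4 UPM (2.09, 1.36 to 3.21), and at 1.97-fold under TMM scaling, just under the call. Type 17 cells were over other alpha beta cells in both Il17rb (2.67-fold) and Il17re (1.70-fold). The part of that mixture in this difference was not tested. Il17re had a UMI in 23 of 46 and 38 of 126 cells. Over all measured genes 5.67% were higher and 5.81% lower. Of the lymphoid list 15 were measured, none was higher and Cd7 and Il22 were lower. Cd7 stood at 36.6 against 103 UPM, and the 55 Il22 UMIs all lay in cells without Il17rb. Among 97 thinned type 17 alpha beta cells 4 of 9 with Il17rb also had Il17re, against 15 of 88 without (44.4%, 13.7 to 78.8, and 17.1%, 9.87 to 26.6). These intervals overlap.

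Il17re was high in type 17 T cells of both lineages, and most of its UMIs in the pool and the second library lay in gamma delta T cells. In the pool type 17 and other gamma delta cells held 51.3% and 15.6% of its UMIs, and were 35.8% and 13.5% of cells. In the second library they held 51.0% and 30.8%, and were 33.9% and 39.7% of cells. Type 17 gamma delta T cells stood at 128 UPM in the pool (116 to 142, 592 cells) and 116 in the IL-18R-CD103-GFP- labelled library (104 to 129, 634 cells), a ratio of 1.11 (0.955 to 1.29). Between these groups 0.264% of measured genes were higher and 0.405% lower in the pool. UMIs were found in 42.2% and 38.0% of them, and in 20.8% and 20.1% at 2000 UMIs. ILC2 of the IL-18R-ST2+ library held 6 UMIs in 1068 cells, or 1.14 UPM, and serve as the low end.

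By level, the 2 libraries differed in their other gamma delta T cells. In the pool the 224 cells with under 2 type 17 UMIs had 108 UPM (88.6 to 130), and type 17 cells were 1.19-fold over them (0.963 to 1.49). In the IL-18R-CD103-GFP- labelled library the 744 such cells had 53.5 UPM (46.5 to 61.3), and type 17 cells were 2.16-fold over them (1.82 to 2.58), or 1.96-fold under TMM scaling, just under the call. Within that library the type 17 ratio also fell under the call with gates set on cells thinned to 2000 UMIs (1.38, 1.15 to 1.65) and with marker sums of 3 or more UMIs (1.58). With the main gates, 2.97% of measured genes there were at least 2-fold higher in type 17 cells, and 0.769% in the pool. Thinned shares were 15.8% in the pool's other cells (11.3 to 21.3) and 12.1% in those of the second library (9.80 to 14.6), which overlap. The pool's other gamma delta cells were 2.01-fold over those of the second library by level (1.58 to 2.54), where 1.87% of measured genes were higher, and 1.84-fold with TMM scaling. The difference between the libraries' ratios was not tested, for want of replicates.

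With cells of 0 type 17 UMIs as the reference the contrast was wider. In the pool 118 such cells had 99.3 UPM (74.8 to 129), and type 17 cells were 1.29-fold over them (0.972 to 1.75). In the IL-18R-CD103-GFP- labelled library 491 such cells had 33.0 UPM (26.6 to 40.4) and the ratio was 3.51 (2.78 to 4.47), where 8.24% of measured genes were higher and 3.43% lower. Il17a itself did not divide the pool's gamma delta cells by Il17re: those with an Il17a UMI had 123 UPM and those without had 122. In the second library the values were 102 and 70.9 UPM.

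Il17ra ran the other way in the pool. Type 17 gamma delta cells had 37.7 UPM (30.9 to 45.5), other gamma delta cells 54.8 (41.5 to 71.0) and those with 0 type 17 UMIs 68.6 (48.5 to 94.1). The ratio of the first to the last was 0.549 (0.376 to 0.817), short of the 2-fold call, which 2.26% of measured genes passed on the lower side. In the IL-18R-CD103-GFP- labelled library the 3 levels were 47.9, 49.95 and 50.5 UPM, within each other's intervals. Il17rc had 44 UMIs in the pool's type 17 gamma delta cells, or 15.4 UPM (11.2 to 20.6), and 12 in the others, or 11.5 (5.96 to 20.1). In the second library these were 31 UMIs at 10.4 UPM and 22 at 5.64 (ratio 1.84, 1.03 to 3.34). Gamma delta T cells thus held 56 of the 80 Il17rc UMIs of the pool and 53 of the 59 of the second library. For comparison, type 17 and other gamma delta cells were 35.8% and 13.5% of pool cells, and 33.9% and 39.7% of cells in the second library.

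Alpha beta type 17 cells of the pool carried Il17re at 109.9 UPM (84.6 to 140), against 64.6 (43.3 to 92.8) in other alpha beta cells, a ratio of 1.70 (1.08 to 2.73). They differed from type 17 gamma delta cells of the pool by a ratio of 0.856 (0.646 to 1.12), an interval that includes 1, while on Il17rb they differed 111-fold. With gates set on cells thinned to 2000 UMIs the alpha beta type 17 cells had 182 UPM of Il17re (110 to 285) and the gamma delta 131 (115 to 148), which turns the order with overlapping intervals. The 82 other alpha beta cells of the IL-18R-CD103-GFP- labelled library had 28.5 UPM (16.3 to 46.2). Its 25 CD3-negative type 17 cells held 13 Il17re UMIs, or 96.9 UPM (51.6 to 166), and the 19 of the pool held 3. Tcf7-positive cells had 10.2 UPM in the pool (3.76 to 22.3) and 23.0 in the second library (9.91 to 45.2), a ratio of 0.446 (0.128 to 1.47) whose interval includes 1. A CD3-negative cell here is one with no CD3 UMI, and 5 of the 25 cells had a Trac UMI and 3 a Trdc UMI.

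The highest Il17rb level of any pool gate was in its CD3-negative type 17 cells (247 UPM), which rests on 19 cells. Among the larger gates named here Il17rb ran from ST2+ ILC2 (107 UPM), pool ILC2-gated cells (99.0), alpha beta type 17 cells of the pool (77.2) and Tcf7-positive pool cells (61.4) to other alpha beta cells (29.0 in the pool, 28.5 in the second library, where 1 cell held 7 of 16 UMIs) and gamma delta T cells (1.02 and 2.47). In that order neighbours overlap in their intervals down to the other alpha beta cells, and the gamma delta cells lie apart from these. The ILC2 gate of the second library, left out of that order, held 11 Il17rb UMIs in 30 cells, or 59.1 UPM, near the Tcf7-positive pool cells. Outside these gates, CD3-negative cells with no marker had 71.3 UPM in the pool, 73.1 in the second library and 107 in the IL-18R-ST2+ library (80.7 to 140, 123 cells), where they stood level with the ILC2. Other CD3-positive cells had 32.9, 12.3 and 92.0 UPM in the same order. Among gamma delta and alpha beta gates, Il17re was highest in type 17 gamma delta cells (128 and 116). Alpha beta type 17 cells (109.9) and other gamma delta cells of the pool (108) followed, all overlapping. Lower stood other alpha beta cells of the pool (64.6), then other gamma delta (53.5) and other alpha beta cells (28.5) of the second library. ST2+ ILC2 had 1.14. Other CD3-positive cells had 96.3 UPM in the pool, 66.7 in the second library and 0.829 in the IL-18R-ST2+ library. CD3-negative cells with no marker had 4.75, 53.2 and 0 UPM in the same order.

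The genes whose levels followed each receptor most closely were sought over 23 lineage-by-library groups of at least 20 cells, by Pearson's r of log2(UPM + 10) among 5590 genes of at least 50 UPM in some group. The groups come from 3 libraries and share their depth and free RNA, so r is a description. The 8 closest to Il17rb were Stab2 (0.884), Bzw2 (0.881), Lmo4 (0.866), Tnfrsf18 (0.836), Padi2 (0.811), Ptger4 (0.803), Il2 (0.803) and Ccr8 (0.779). Tnfrsf18, the gene of the costimulatory receptor GITR, stood at 509 UPM in ST2+ ILC2, 183 in Tcf7-positive pool cells and 21.3 in type 17 gamma delta cells of the pool. Stab2, which encodes a scavenger receptor, stood at 198, 123 and 2.79 UPM in the same groups. Ptger4, a prostaglandin E2 receptor gene, stood at 60.0, 27.3 and 8.37 UPM.

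For Il17re the 8 were Kcnc1 (0.957), Aqp3 (0.943), Kcnk1 (0.921), Rbpms2 (0.913), Dkkl1 (0.906), Tcrg-C2 (0.905), Kbtbd11 (0.905) and Il23r (0.895). Il23r was itself a gate gene of the type 17 cells. Tcrg-C2, a constant segment of the gamma chain of the T cell receptor, was highest in alpha beta type 17 cells of the pool, at 134 UPM. Kcnk1, a potassium channel gene, stood at 245 UPM in type 17 gamma delta cells of the pool, 97.8 in alpha beta type 17 cells and 1.90 in ST2+ ILC2. Aqp3, a water and glycerol channel gene, stood at 129, 73.8 and 3.98 UPM in those groups. Il17rc, the chromosomal neighbour of Il17re, had an r of 0.775 with it, and 71 of the 5590 genes had a higher value.

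Chdh, the head-to-head neighbour of Il17rb, followed Il17rb with an r of 0.783, and 7 of the 5590 genes had a higher value. It lies below the 50 UPM floor of the named genes and was looked at for its position. Chdh stood at 28.1 UPM in the IL-18R-ST2+ library (24.6 to 32.1), 9.25 in the pool (7.37 to 11.5) and 3.33 in the IL-18R-CD103-GFP- labelled library (2.28 to 4.71), the same order as Il17rb. The IL-18R-ST2+ level was 3.04-fold over the pool (2.35 to 3.96) and 8.44-fold over the second library (5.81 to 12.6).

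Within the pool Chdh, like Il17rb, differed between type 17 cells: 32.6 UPM in alpha beta (19 UMIs in 98 cells) against 0.349 in gamma delta (1 UMI in 592 cells), a ratio of 93.5 with an interval of 14.9 to 3885. ST2+ ILC2 had 30.4 UPM of Chdh (25.8 to 35.4). Among single ILC2 Chdh stood at 38.8 UPM in cells with an Il17rb UMI and 25.3 in cells without (1.53, 1.11 to 2.12). Tcf7-positive pool cells had 6 Chdh UMIs, or 10.2 UPM (3.76 to 22.3), from which ILC2 differed 2.96-fold (1.33 to 8.20), an interval that includes the 1.74-fold of Il17rb. The pool's CD3-negative type 17 cells had 31 Il17rb and 0 Chdh UMIs in 19 cells, and the exact upper bound for Chdh there was 29.4 UPM.

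Actr8, which lies on the plus strand and overlaps 10220 bases of Il17rb, followed it less closely than Chdh did. It stood at 21.0, 15.7 and 14.6 UPM in the IL-18R-ST2+ library, the pool and the IL-18R-CD103-GFP- labelled library, the same order as Il17rb. The differences were smaller: the IL-18R-ST2+ level was 1.34-fold over the pool (1.06 to 1.69) and 1.44-fold over the second library (1.14 to 1.82). Its r with Il17rb was 0.312, and 660 of the 5590 genes had a higher value. Whether counting used the strand is not given in the sources used here, so reads of the overlap could be shared between the 2 genes.

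**Figure D4:**
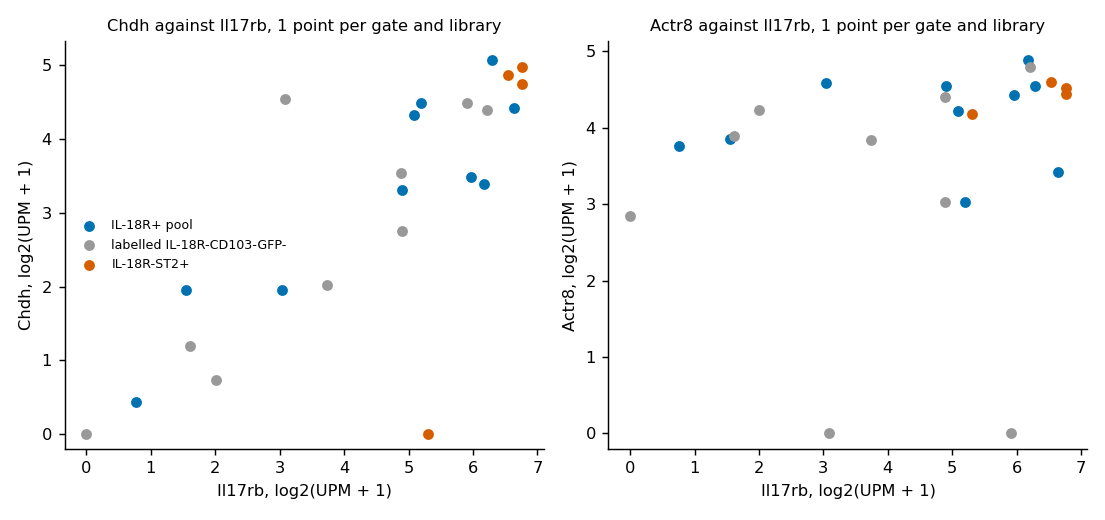
Chdh (left) and Actr8 (right) against Il17rb, each as log2(UMIs per 1000000 + 1), with 1 point per marker gate and library (23 groups of 20 or more cells). Chdh is higher where Il17rb is higher, with r of 0.785 on this scale, and Actr8 spreads widely, with r of 0.193.

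The signalling chain below the receptors was described with 2 lists. Of 18 adaptor and kinase genes 12 were measured between ST2+ ILC2 and the pool's Tcf7-positive cells: 1 was higher in ILC2, 1 lower and 10 neither, with a median log2 ratio of -0.33 against -0.38 over all genes. Over all measured genes 6.15% were higher and 17.8% lower, so 1 of 12 higher is near that share. The higher one was Traf3, an inhibitor of non-canonical NF-kB signalling, at 60.5 against 20.5 UPM (2.96, 1.67 to 5.78). Map3k14, the NF-kB inducing kinase that TRAF3 restrains, was lower in ILC2 than in the pool's Tcf7-positive cells, at 30.7 against 63.1 UPM (0.487, 0.339 to 0.716). Under TMM scaling its ratio was 0.656, which misses the call, and Tcf7-positive cells of the second library had 54.5 UPM. Next by size were Tab2, at 108 against 189 UPM (0.572, 0.466 to 0.707), and Tbk1, at 24.85 against 40.96 (0.607, 0.391 to 0.981). Both were lower in ILC2 but inside the 2-fold limits, as was Traf4 (0.629, 0.422 to 0.968). Ikbkb, a kinase gene of the canonical NF-kB pathway, had a smaller difference, at 96.6 against 61.4 UPM (1.57, 1.12 to 2.27). Ikbkb is given because it passes the call under TMM scaling, at 2.12. Traf3ip2, the gene of Act1, stood at 27.1 against 27.3 UPM (0.994, 0.591 to 1.79).

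Of 12 response and feedback genes 11 were measured, 4 were higher in ILC2 and none was lower, where 6.15% of all measured genes were higher and 17.8% lower. These were Nfkbiz, a nuclear NF-kB cofactor (1038 against 208 UPM, ratio 4.98), Nfkb1 (1450 against 440, 3.29), Nfkbia (2327 against 889, 2.62) and Tnfaip3 (1325 against 521, 2.54), of which the last pair encodes the NF-kB inhibitors IkB-alpha and A20. In Tcf7-positive cells of the second library these 4 genes stood at 344, 531, 1403 and 740 UPM in the same order, each nearer to the ILC2. The ILC2 were not set against those cells, so the 4 calls hold for the pool's Tcf7-positive cells only. The list's median log2 ratio of ILC2 over the pool's cells was -0.36. These genes answer to many NF-kB inducing receptors, and the part of IL-17 family receptors in their level was not tested. Type 17 against other gamma delta cells of the IL-18R-CD103-GFP- labelled library gave 0 called of 11 measured genes in each list, where 2.97% of all measured genes were higher and 2.44% lower. Against cells with 0 type 17 UMIs in that library 1 response gene was called, Nfkbiz, at 335 against 152 UPM (2.21, 1.97 to 2.48), and at 1.94-fold under TMM scaling.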

How the data were processed

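Per the labels' protocols, sorted lung cells were made into 10x Chromium Single Cell 3' libraries. Cell Ranger 6.0.1 and build mm10 are named per the submitters' processing notes, and the sources used here give neither annotation nor strand setting. The deposited matrices hold raw UMI counts per gene and barcode, and nothing was normalised by the authors.

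Of 5351 barcodes, those with 500 or more genes and no more than 10% mitochondrial UMIs were kept. Scrublet (scanpy 1.11.5) then removed 26 cells, 0.503% of those tested, barely above the 0.5% below which its calls are not trusted, so doublets may remain. Empty droplets were not used, and free RNA was not removed. Counts were summed per library or gate and divided by its UMI total (UPM). Levels have exact Poisson, shares Clopper-Pearson and ratios conditional binomial intervals at 95%. A gene was measured at 20 UPM in either group and called at 2-fold, with sums raised to a floor of 3 UMIs. Cells with fewer than 2000 UMIs (14 to 19 per library) were left out of thinned shares. No test was run, since each group has 1 library.

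The members and gene lists were chosen with earlier results of these data known. Genes were named by rule: the receptors and ligands, the 8 closest genes by correlation for Il17rb and for Il17re, up to 4 genes of each signalling list with the largest ratio, and for the split by Il17rb the gate markers and lymphoid list. Chdh, Actr8, Traf3ip2, Traf4, Ikbkb, Itgae, Zbtb16 and other genes printed beside these as context were chosen after their values were seen or for their position. One marker of the type 17 gate, and a gate on it alone, are not reported here. Promoter windows were found for 4 of 5 members.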

Additional observations from a re-analysis of the deposited data

How the results depend on the processing

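No paired analysis was possible because each group is a lone library whose label carries no replicate number. Across 15 settings, 31 values gave 198 alternative values. Of these 179 stayed within the counting interval of the reported value and 19 lay outside it. Reversal was looked for only in ratios of at least 2-fold either way, and 0 of them crossed 1. Levels, shares and smaller ratios, such as the 1.74 of Il17rb in ILC2 over Tcf7-positive cells, could not be counted as reversed. With TMM scaling the pool over the IL-18R-ST2+ library gave 1.08 for Il17ra and 0.255 for Il17rb. With marker sums of 3 or more UMIs, Il17re in other gamma delta cells of the IL-18R-CD103-GFP- labelled library was 68 UPM and the ratio of type 17 to them 1.58. With gates set on cells thinned to 2000 UMIs these were 84.5 UPM and 1.38, the thinned share in the other cells was 15.8%, and alpha beta type 17 cells of the pool had 106 UPM of Il17rb, 182 UPM of Il17re and a thinned Il17re share of 40%. With other cells of 0 type 17 UMIs, chosen after seeing the data, the ratio was 3.51 and their share 8.37%. The 2-fold call of Il17re in that library thus depends on the gate, and stricter or shallower gates by construction place cells with some type 17 UMIs among the others. Limiting Tcf7-positive cells to those with 0 ILC1 and NK UMIs gave a ratio of 0.998 for Il17rb and a share of 26.2%. At 3000 UMIs per cell the Il17rb share of ILC2 was 24.8%, and the Il17re shares of type 17 and other gamma delta cells were 29.9% and 24.4% in the pool and 25.7% and 17.4% in the second library. The alternatives of all CD3-negative Tcf7-positive cells, of ILC2 at any CD3 count and of Tcf7-positive cells split by Zbtb16 were also chosen after seeing the data. Il17rc and Il17rd had under 100 UMIs per library, so differences in them are limited by depth, as are gates of under 50 cells.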
